A study of Mus musculus with 2 samples.

Results

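The cells described here were neurons of the medial ganglionic eminence (MGE) that carried high Calb1 and a value for Lhx6 but none for Sst. They were chosen by measured values in the deposited matrix. A cell had to have Tubb3 at 10 or more, Hes5 under 3, Top2a and Mki67 together under 3, Lhx6 at 1 or more, Calb1 at 5 or more, Zic1 under 3, and Sst, Isl1, Gbx1 and Gbx2 all at 0. Of 4001 cells, 202 met the rule, which is 5.05% (exact 95% binomial interval 4.39% to 5.77%). The first 3 steps, which select postmitotic neurons, left 2407 cells, Lhx6 left 1877 and the Calb1 minimum 390, and the cells at Sst 0 numbered 315. All cells came from 1 library that pooled MGE tissue of CD-1 mouse embryos at E11.5 (days of embryonic development), dissected and run on the 10x Chromium platform. Each cell suspension in the pool had been tagged with 1 of 6 sample barcodes (MULTI-seq, which marks cells with lipid-anchored oligonucleotides). By the barcode list, 4 barcodes marked GFP-gated cells and 2 ungated cells, and each belonged to 1 of the 2 enhancers hs192 and hs799. Cells were not assigned to these barcodes, so enhancers, gates and embryos were not compared, and the gate can set the share of any group. The labels name no construct beyond the enhancers. With 1 library there was no replicate and no test between groups, and a spread given below is a standard deviation (SD) over cells.

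The MGE is the embryonic source of the cortical interneurons that later contain somatostatin or parvalbumin, and it also makes striatal interneurons, pallidal neurons and cholinergic neurons of the basal forebrain. Nkx2-1 patterns its progenitors, and Lhx6 acts downstream of Nkx2-1 in the young neurons that leave for the cortex and striatum. Calb1 encodes calbindin, a calcium-binding protein carried by many migrating MGE-derived cells. Maf encodes a leucine zipper factor of the MGE interneuron lineage that continues after the cells leave the ventricular zone. Lhx8 is a LIM-homeodomain partner of Lhx6 that is kept in cholinergic and some pallidal neurons.

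Values in the matrix were whole numbers that the authors had made from molecule counts and brought to nearly the same total in every cell. A level is the summed value of a gene per 10000 summed values of a group. Calb1 itself had cell values from 5 through a median of 12 to 76 (n = 202 cells), and its level was 17.3 times that of the Calb1-low counterparts described below. Lhx6 had a level of 3.33 (SD 1.92), with cell values from 1 through 4 to 12. Both were set by the rule and are given as a description only. Calb1 lies on chromosome 4 at 15881264 to 15908064, plus strand, and Lhx6 on chromosome 2 at 36081953 to 36105408, minus strand (GRCm38, both protein-coding).

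The label names Maf as the third marker, and the rule did not use it. Maf had a value in 87 of the 202 cells, or 43.1% (36.1% to 50.2%). In progenitors of the same library (739 cells with Hes5 at 10 or more and Tubb3 under 10), Maf had a value in 2.84% (1.77% to 4.31%). A share in progenitors can hold free RNA as well as their own transcripts, and the 2 were not told apart. Of the genes of the GABAergic state, Gad2, which encodes a GABA-synthesizing enzyme, had a value in all 202 cells and in 13.8% of progenitors, and its level was 7.82 (SD 3.73). Its sister enzyme Gad1 was at 1.50 (78.2% of cells, 4.74% of progenitors), and the vesicular GABA transporter Slc32a1 was at 2.15 (90.6%). Maf itself was thus above 0 in a minority of cells, while Gad2 was above 0 in all of them.

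Markers of glutamatergic, endothelial, mural and microglial cells were low. Of 11 measured glutamatergic markers, 7 were at 0 in every one of the 202 cells, among them Slc17a6, the vesicular glutamate transporter, Eomes and Neurod1. Slc17a6 had a value in 0 of 202 cells, which allows a share of cells with a value of up to 1.81% and does not show that a cell lacked the transcript. The share was 1.90% in the other neurons and 0.135% in progenitors. The summed level of that list was 0.0645, beside 0.457 in all other neurons. Endothelial markers summed to 0.0242, mural and mesenchymal markers to 0.0282, and the 1 measured microglial marker, Aif1, was at 0. Cell cycle and ventricular zone genes were limited by the rule itself, through Top2a, Mki67 and Hes5. The 18 cell cycle genes summed to 1.18 and the 20 ventricular zone genes to 12.7, beside 1.65 and 13.6 in the other neurons and 48.6 and 111.6 in the progenitors chosen by Hes5. Hemoglobin transcripts, the mark of red blood cells, summed to 1.80 in the Calb1-high cells, 2.02 in their Calb1-low counterparts and 1.97 in their Sst-positive counterparts. Median cell totals were 12137, 11929 and 12030 in these 3 groups, and 13515 in progenitors.

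The 202 cells were set beside 3 groups that share their library. The 448 Calb1-low counterparts met every step of the rule except that Calb1 was under 5. The 59 Sst-positive counterparts met every step except that Sst was 1 or more. The 2205 other neurons were all remaining cells past the Tubb3, Hes5 and cell cycle steps, and they include both counterpart groups. The same 202 cells stand in every comparison, so the comparisons are not independent of each other. A log2 difference is log2(level + 0.1) in the Calb1-high cells minus that in the comparison group, over genes with a level of at least 0.25 in either, and a gene was counted when it passed 2-fold (a difference of 1 on this scale, which understates changes of low genes).

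Against the Calb1-low counterparts, the Calb1-high cells had more of the interneuron factor Npas1, of the receptors Epha5 and Erbb4 and of several synaptic genes, and less Lhx8, Nkx2-1 and Vim. Of 5687 genes, 14 were at least 2-fold higher (0.246%), Calb1 among them, and 17 at least 2-fold lower (0.299%). Over all these genes the median log2 difference was 0.01, and 2956 of them were above 0.

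Among 21 measured interneuron transcription factors, 2 passed 2-fold upward and none downward, with a median of 0.16. Npas1, a bHLH-PAS factor of interneurons (chromosome 7, 16455721 to 16477728, minus strand), was among them, at 0.749 (SD 1.20) against 0.215 (log2 difference 1.43), with cell values from 0 through a median of 0 to 7. Maf (chromosome 8, 115682942 to 115707794, minus strand) was at 0.717 (SD 1.08) against 0.327, a difference of 0.94 that did not pass 2-fold. Its share of cells, 43.1%, compared with 22.5% (18.8% to 26.7%) of Calb1-low cells. With every cell thinned to 10000 values the shares were 35.6% (29.0% to 42.7%) and 21.0% (17.3% to 25.1%). Mef2c, a MADS-box factor of maturing interneurons, was at 0.395 against 0.152 (0.97), and the orphan nuclear receptor gene Nr2f1 at 5.42 against 3.44 (0.64). Sox6 and Satb1, which act after Lhx6 in MGE interneurons, differed little, with log2 differences of 0.31 and 0.11. Of the 21 factors, 14 were above 0, beside 2956 of all 5687 genes. Among those below 0 were Prox1 (-0.71), Etv1 (-0.53) and Zeb2 (-0.48). The cell values of Npas1 and Maf overlapped between the groups, each of which held cells at 0.

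The regional factors lay below 0 without exception. All 4 measured MGE regional genes apart from Lhx6 were lower, with a median of -0.64, and none passed 2-fold. Lhx8 (chromosome 3, 154306294 to 154330659, minus strand) was at 2.52 (SD 3.46) against 4.90, a difference of -0.93, with cell values from 0 through 1 to 24. It had a value in 66.8% of Calb1-high cells (59.9% to 73.3%) and in 80.4% of Calb1-low cells (76.4% to 83.9%), and thinned in 64.4% (57.3% to 71.0%) and 78.6% (74.5% to 82.3%). Nkx2-1 was at 1.62 (SD 1.95) against 3.19 (-0.94). Nkx2-1 had a value in 68.3% of Calb1-high cells and 84.6% of Calb1-low cells, beside 83.4% of progenitors. The 6 Dlx genes, the homeobox genes of forebrain GABAergic neurons, had a median of 0.09, and the 5 GABA genes a median of 0.13, with none past 2-fold in either list.

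Receptors of migration and guidance had a median of 0.21 over 15 genes, and 2 passed 2-fold, both upward. Epha5, an ephrin-A receptor (chromosome 5, 84054761 to 84417382, minus strand), was at 8.69 (SD 7.65) against 3.78 (1.18), and its cell values ran from 0 through 8 to 41. It had a value in 92.1% of Calb1-high cells (87.5% to 95.4%) and 64.1% of Calb1-low cells (59.4% to 68.5%), and thinned in 89.1% (84.0% to 93.0%) and 61.8% (57.2% to 66.3%). Erbb4, the neuregulin receptor that guides tangentially migrating interneurons (chromosome 1, 68032186 to 69108059, minus strand), was at 1.51 (SD 1.47) against 0.635 (1.13). Its shares were 75.7% (69.2% to 81.5%) and 39.5% (35.0% to 44.2%), thinned 72.8% (66.1% to 78.8%) and 36.4% (31.9% to 41.0%), beside 7.17% in progenitors. Nrp2, a semaphorin receptor, was at 0.729 against 0.340 (0.92). The chemokine receptor Cxcr4, which later guides interneurons in the cortex, had a value in 1 of the 202 cells.

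The 250 bases before the RefSeq start of 3 genes are shown. Epha5 and Erbb4 were chosen because they were higher in the Calb1-high than in the Calb1-low cells, and Nr2f2, described further on, because it was higher than in the Sst-positive cells. Each is given 5′ to 3′ on the gene's own minus strand in GRCm38.p6, and capitals mark TAATTA, the core bound by many homeodomain factors.
Epha5, chr5:84417383-84417632: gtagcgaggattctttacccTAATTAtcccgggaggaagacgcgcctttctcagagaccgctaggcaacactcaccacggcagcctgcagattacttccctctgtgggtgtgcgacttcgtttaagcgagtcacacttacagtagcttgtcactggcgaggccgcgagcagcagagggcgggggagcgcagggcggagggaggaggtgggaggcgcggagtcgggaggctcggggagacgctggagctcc
Erbb4, chr1:69108060-69108309: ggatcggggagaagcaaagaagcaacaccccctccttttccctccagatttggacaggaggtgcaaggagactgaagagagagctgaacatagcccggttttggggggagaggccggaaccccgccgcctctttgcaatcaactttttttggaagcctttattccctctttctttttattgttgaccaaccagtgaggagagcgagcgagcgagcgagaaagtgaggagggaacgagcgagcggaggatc
Nr2f2, chr7:70366747-70366996: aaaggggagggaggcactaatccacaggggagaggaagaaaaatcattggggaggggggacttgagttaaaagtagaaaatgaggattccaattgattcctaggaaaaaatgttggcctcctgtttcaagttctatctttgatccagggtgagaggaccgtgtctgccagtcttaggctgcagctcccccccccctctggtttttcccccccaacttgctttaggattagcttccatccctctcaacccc
Besides TAATTA, the stretches were searched on both strands for the nuclear receptor half-site AGGTCA. The MAF half-site TGCTGA was searched likewise. TAATTA was found once, in the Epha5 stretch, and neither of the other motifs was found in the 3 stretches. Over 32851 RefSeq promoter windows of mouse, 4.84% held the homeodomain core, 14.0% the nuclear receptor half-site and 16.1% the MAF half-site. The windows differed in base composition, with 62.4% G and C for Epha5, 54.0% for Erbb4 and 50.0% for Nr2f2. Such a match is a description of the letters and is not a measured binding site.

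Synaptic adhesion and release genes had a median of 0.34 over 11 genes, 10 of them above 0, and 2 passed 2-fold. Pcdh9, a protocadherin, was at 0.810 against 0.325 (1.10), and Syt4, a synaptotagmin, at 0.967 against 0.415 (1.05). Nxph1, a secreted ligand of neurexins, was at 2.74 (SD 2.10) against 1.39 (0.93) and had a value in 84.2% of Calb1-high and 52.7% of Calb1-low cells. Of 13 ion channel and receptor genes, with a median of 0.31, the AMPA receptor subunit gene Gria4 passed 2-fold, at 0.705 against 0.259 (1.17). Calcium-handling genes other than Calb1 had a median of 0.13 over 11 genes. The exception was Efcab6, which encodes an EF-hand protein, at 0.447 against 0.0826 (1.58). Its value rested on 25 cells, 12.4%, with a highest cell value of 24.

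Genes of the neuronal cytoskeleton were slightly higher, with 19 of 20 above 0, beside 2956 of all 5687 genes. Their median was 0.26, and none passed 2-fold. Mapt, which encodes the microtubule protein tau, was at 3.68, a log2 difference of 0.85, and Tubb3, a rule gene, at 38.5 against 34.0. Ventricular zone genes had a median of -0.51 over 10 genes, and 3 passed 2-fold downward. The intermediate filament gene Vim was at 3.58 (SD 4.08) against 7.94 (-1.13), the G1 cyclin gene Ccnd1 at 0.210 against 0.562 (-1.10) and the metallothionein gene Mt1 at 0.0886 against 0.316 (-1.14). Other members of the list lay on the other side, with Ptn at 0.568 against 0.303 (0.73), Sox2 at 5.45 against 4.06 (0.42) and Nes at 0.713 against 0.683 (0.05). Insm1, a zinc finger factor of newborn neurons, was at 0.149 against 0.457 (-1.16). Of the dissociation stress genes, 8 of 9 were above 0 with a median of 0.28 and none past 2-fold, and their part in the other differences was not tested.

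Outside the lists, the protocadherin gene Pcdh7 was at 0.363 against 0.0551 (1.58), the synaptic scaffold gene Dlgap1 at 0.395 against 0.116 (1.20) and C1qtnf4 at 0.995 against 0.420 (1.07). The largest downward differences were in Abracl, at 1.83 against 5.12 (-1.43), and the POU factor gene Pou3f2, at 0.608 against 1.80 (-1.42). The growth factor gene Mdk was at 0.830 against 2.32, the cyclin gene Ccnd2 at 1.03 against 2.72 and the chromatin gene Hmgb2 at 0.854 against 2.12. Zfhx3 and Pou3f1, 2 transcription factor genes of the cholinergic lineage list, were also lower, at 0.600 against 1.55 (-1.24) and 0.649 against 1.59 (-1.17). The share of cells in which the value 1 was rare, a trace of the authors' rescaling, was 4.95% in the Calb1-high and 7.81% in the Calb1-low cells. Without those cells, 15 genes were at least 2-fold higher and 16 lower. With a pseudocount of 0.5 only 2 genes passed upward and 5 downward, and Npas1 was at 0.81 and Efcab6 at 0.70.

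**Figure D1:**
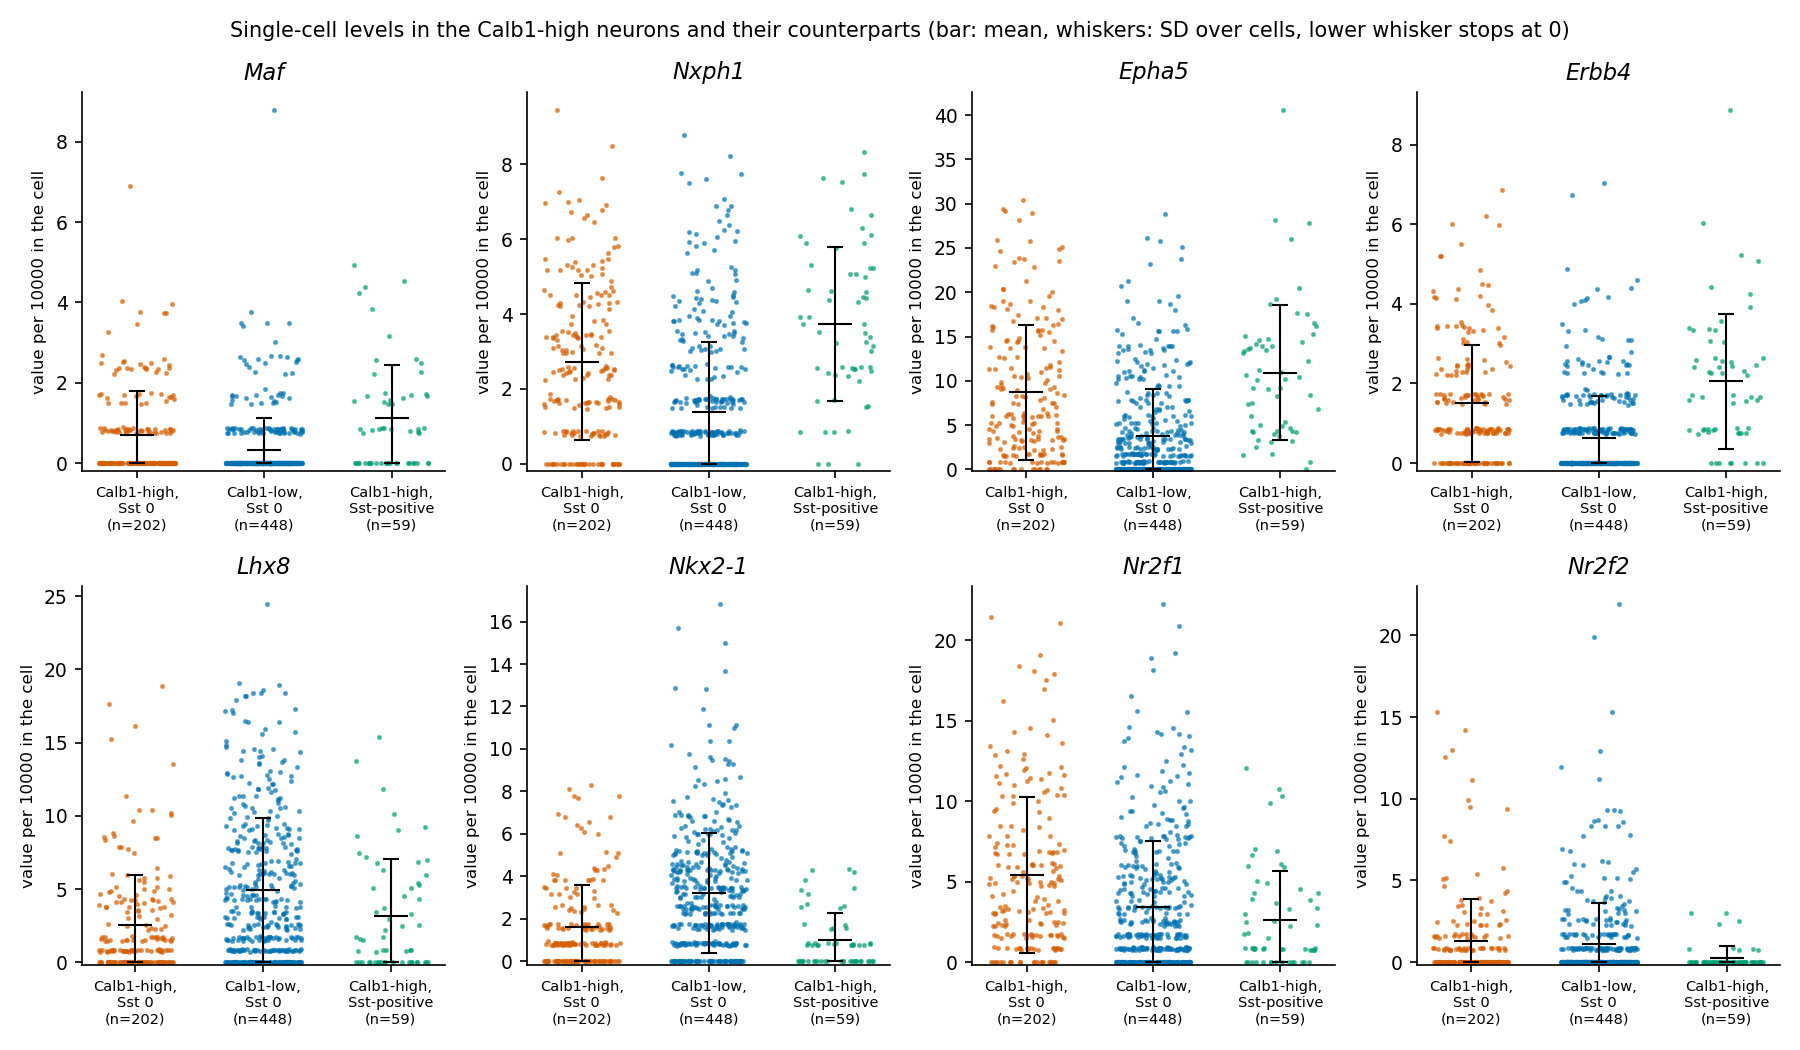
Values of 8 genes in single cells, per 10000 values of the cell, in the Calb1-high neurons without Sst (202 cells), the Calb1-low counterparts (448) and the Sst-positive counterparts (59). Each point is a cell, the bar is the mean over cells and the whiskers the SD. Nxph1, Epha5 and Erbb4 stand higher in the Calb1-high than in the Calb1-low cells and Lhx8 and Nkx2-1 lower, while all groups overlap. Nr2f2 is at 0 in most cells of each group, with a value in 42.6%, 37.1% and 15.3% of them.

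The differences were graded along Calb1. Among Lhx6 neurons without Sst that met the other steps, cells were ordered by their Calb1 value: 276 cells at 0, 172 at 1 to 4, 84 at 5 to 9, 74 at 10 to 19, 39 at 20 to 39 and 5 at 40 or over. Over the first 5 of these bins Epha5 went from 2.53 to 5.79, 6.60, 9.66 and 11.8. Nxph1 went from 0.952 to 2.08, 2.26, 2.75 and 3.79, and Npas1 from 0.146 to 0.324, 0.621, 0.738 and 1.10. In the opposite direction, Vim went from 9.10 to 6.07, 4.54, 2.89 and 2.40, and Lhx8 from 5.32 to 4.23, 3.11, 2.50 and 1.45. Nkx2-1 went from 3.70 to 1.14 over the same bins and Ccnd2 from 3.46 to 0.705, whereas Mapt went from 1.89 to 4.95. Nr2f2 was at 1.08 where Calb1 was 0, 1.18 at 1 to 4, 1.41 at 5 to 9 and 1.53 at 20 to 39, with its lowest level of these bins at 10 to 19. The bin of 40 or over held 5 cells and left the order in several genes, with Epha5 at 4.54 and Vim at 6.82.

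Cells on either side of the Calb1 minimum of the rule had similar Epha5 and Vim, and Nxph1 was lower just inside it. The 60 cells just outside it, with Calb1 at 3 or 4, had Epha5 at 5.21, Nxph1 at 2.90, Lhx8 at 3.89 and Vim at 4.56. The 48 cells just inside, with Calb1 at 5 or 6, had Epha5 at 5.12, Nxph1 at 1.87, Lhx8 at 3.22 and Vim at 5.02. Across the 202 cells, the genes ranked highest by Spearman correlation with Calb1 were Tubb2a and Epha5 (rho 0.29 for each), Malat1 (0.28) and Mapt (0.26), and the lowest were Ola1 (-0.29), Mrpl13 (-0.27) and Pou3f2 (-0.25), of 5907 genes ranked. These are weak correlations in sparse values of cells from 1 library and are given as a description.

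**Figure D2:**
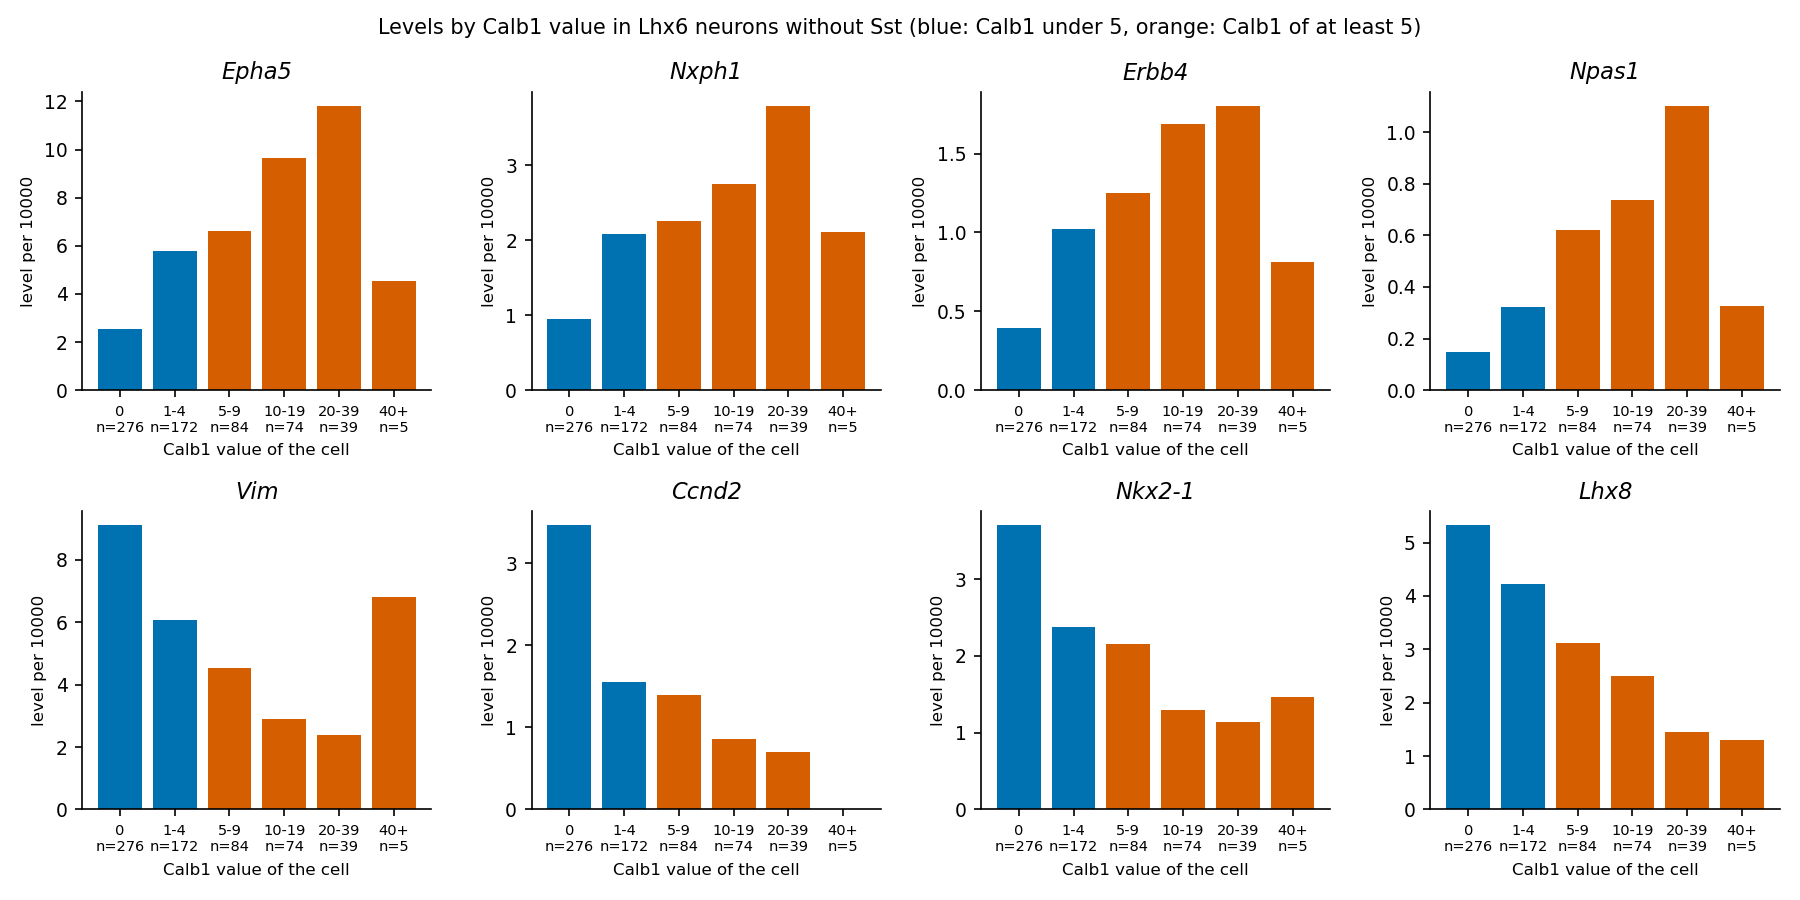
Levels per 10000 of 8 genes in Lhx6 neurons without Sst, by the Calb1 value of the cell on the horizontal axis, with the number of cells in each bin. Bars are group levels without an error, blue below and orange from the Calb1 minimum of 5 upward. Up to the bin of 20 to 39, Epha5, Nxph1, Erbb4 and Npas1 are higher and Vim, Ccnd2, Nkx2-1 and Lhx8 lower with each step in Calb1, and the last bin holds 5 cells.

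Against the 59 Sst-positive counterparts, the Calb1-high cells without Sst had more Nr2f2, Prox1 and Nr2f1, genes known for interneurons of the caudal ganglionic eminence (CGE), and less Cux2, Nfib and Six3. Of 5787 genes, 17 were at least 2-fold higher (0.294%) and 13 at least 2-fold lower (0.225%), Sst itself among the latter, with a median of 0.01 over all genes. Sst was at 15.1 in the Sst-positive cells, and a value of 0 in the other group does not show that a cell made none. Calb1 was at 16.9 there, and its level in the Calb1-high cells was 0.677 of that.

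Nr2f2, also known as COUP-TFII (chromosome 7, 70351944 to 70366735, minus strand), was at 1.27 (SD 2.61) against 0.262, a log2 difference of 1.92, with cell values from 0 through a median of 0 to 18. It had a value in 42.6% of the Calb1-high cells (35.7% to 49.7%) and 15.3% of the Sst-positive cells (7.22% to 27.0%). After thinning the shares were 38.6% (31.9% to 45.7%) and 13.6% (6.04% to 25.0%). The Calb1-low counterparts, at 1.12 and 37.1% of cells, were close to the Calb1-high cells, and progenitors had a value in 40.6%. Prox1, a homeobox factor, was at 0.463 (SD 0.779) against 0.0964 (1.52), in 34.7% (28.1% to 41.7%) and 10.2% (3.82% to 20.8%) of cells, thinned in 30.2% and 6.78%. It was at 0.824 in the Calb1-low cells, so that its order was Calb1-low, Calb1-high, then Sst-positive. Nr2f1 (chromosome 13, 78188973 to 78199757, minus strand) was at 5.42 (SD 4.86) against 2.66, a ratio of 2.04 that lay just past the 2-fold bound. Of the 4 measured CGE genes 3 passed 2-fold, with a median of 1.26, while Npas1 was at 0.35. Of the other members with a row, Sp8 was at 0.0242 and Calb2 at 0.0242 in the Calb1-high cells, under the level minimum.

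Interneuron factors as a list had a median of -0.16 over 23 genes, with 4 past 2-fold upward and 2 downward. The upward ones were Nr2f1, Nr2f2, Prox1 and Pou3f3, a POU factor gene at 2.01 against 0.909 (1.06). Downward, the homeobox gene Cux2 was at 0.117 against 0.455 (-1.35) and Nfib at 0.173 against 0.524 (-1.19). For 4 genes given above the Sst-positive cells had the highest level of the 3 groups, less than 2-fold above the Calb1-high cells. Maf was at 1.13 there, Erbb4 at 2.05 and Nxph1 at 3.78, and the log2 difference of Epha5 was -0.34. Npas1 was not among them, at 0.565. The neuropeptide gene Npy (chromosome 6, 49822710 to 49829507, plus strand) was at 2.69 (SD 6.43) against 4.59 (-0.75), with a value in 29.7% (23.5% to 36.5%) and 50.8% (37.5% to 64.1%) of cells. Satb1 was at 0.782 against 1.45 (-0.81).

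Among the remaining lists, 2 newborn neuron genes passed 2-fold upward, the Notch ligand gene Dll3 at 0.407 against 0.152 (1.01) and the Notch-modifying glycosyltransferase gene Mfng at 1.04 against 0.441 (1.08). Dll3 had a value in 30.2% (24.0% to 37.0%) and 16.9% (8.44% to 29.0%) of cells, with overlapping intervals. Both genes were lower in the Calb1-high than in the Calb1-low cells (-0.73 and -0.45). Efna5, an ephrin-A ligand gene, was at 0.266 against 0.0827 in the Sst-positive cells. Six3 was lower at 0.342 against 0.827 (-1.07), as was Kitl, the ligand of the Kit receptor, at 0.532 against 1.17 (-1.01). Only 2 of 20 cytoskeletal genes were above 0, with a median of -0.17, beside 2986 of all 5787 genes above 0. Outside the lists, Ccnd2 was at 1.03 against 0.262 (1.64), Zfhx4 at 0.391 against 0.0827 (1.43) and the galectin gene Lgals1 at 0.544 against 0.152 (1.36). C1qtnf4 was at 0.995 against 2.71 (-1.36) and the receptor phosphatase gene Ptprd at 1.08 against 2.36 (-1.06). The counts moved strongly with the cells compared: 38 genes passed upward and 38 downward when cells with Sst of 1 counted as without Sst, and 2 in each direction at a pseudocount of 0.5, where Prox1 was at 0.69 and Cux2 at -0.63. With a Calb1 minimum of 3, Ccnd2 was at 0.87 and Prox1 at 0.90, both under 2-fold, and with Sst of 1 allowed they were at 2.36 and 2.21.

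Against all 2205 other neurons, the Calb1-high cells had more Maf, Npas1, Epha5 and Nxph1 and less of several factors of cholinergic and striatal neurons. Of 5758 genes, 26 were at least 2-fold higher (0.452%) and 49 at least 2-fold lower (0.851%), with a median of 0.00. Calb1, a rule gene, is among the higher ones, at 7.57 times its level in the other neurons. Some of the lower ones are also rule genes (Isl1, Gbx1, Zic1 and Sst). Genes that accompany rule genes are not independent of the rule. The interneuron list had a median of 0.46 over 21 genes with 3 past 2-fold upward, among them Maf at 0.717 against 0.180 (1.55) and Npas1 at 0.749 against 0.208 (1.46). The dissociation stress genes had a median of 0.43, with 8 of 9 above 0, beside 2885 of all 5758 genes. None of them passed 2-fold, and their part in these differences was not tested. Epha5 was at 8.69 against 2.97 (1.52), Nxph1 at 2.74 against 0.949 (1.43), Npy at 2.69 against 0.951 (1.41) and Erbb4 at 1.51 against 0.559 (1.29). Sox2, a progenitor factor kept in some neurons, was at 5.45 against 2.45 (1.12). Outside the lists, the orphan nuclear receptor gene Nr2e1 was at 1.21 against 0.335 (1.59), Rai2 at 0.649 against 0.193 (1.35) and Rprm, a cell cycle inhibitor gene, at 8.99 against 3.74 (1.24).

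Lineage factors of other ventral neurons were low beside these other neurons. Of 6 measured genes of the cholinergic list, rule genes left out, 5 were at least 2-fold lower, with a median of -1.77. Lhx8 was at 2.52 against 6.22 (-1.27), Zfhx3 at 0.600 against 4.37 (-2.67), Pou3f1 at 0.649 against 3.07 (-2.08) and Zic4 at 0.0322 against 0.441 (-2.03). Of 7 measured genes of the lateral ganglionic eminence (LGE) and striatum, 4 were at least 2-fold lower, with a median of -1.58. The early B-cell factor gene Ebf1 was at 0.0766 against 1.48 (-3.16), Meis2 at 0.0927 against 1.52 (-3.08) and the substance P gene Tac1 at 0.0322 against 0.295 (-1.58). Neurofilament genes were lower as well, with Nefl at 0.101 against 0.565 (-1.73) and Nefm at 0.367 against 1.23 (-1.51). Outside the lists, Zfhx4 was at 0.391 against 2.35 (-2.32), the adhesion gene Cadm1 at 0.0806 against 0.636 (-2.03) and the TALE homeobox gene Pbx3 at 0.379 against 1.52 (-1.76). At a pseudocount of 0.5, 8 genes passed upward and 18 downward, and the list medians were -0.99 (cholinergic) and -0.58 (LGE). Without a level minimum these medians were -0.95 over 13 genes and -0.28 over 16 genes, and at a level minimum of 1 that of the LGE list was -3.08 over 3 genes. Against the Sst-positive counterparts the medians were 0.32 (cholinergic, 4 genes) and 0.39 (LGE, 3 genes), and both changed sign under an alternative setting. In that comparison Zfhx3 and Pou3f1 were higher in the Calb1-high cells (0.95 and 0.995), while Lhx8 (-0.31) and Kitl (-1.01) were lower. Both counterpart groups met the same Isl1, Gbx1, Gbx2 and Zic1 steps. Levels in the Calb1-high cells were 0.695 (Ebf1), 0.443 (Meis2), 0.980 (Nefl), 1.60 (Tac1) and 1.60 (Zic4) times those of the Calb1-low cells. They were 1.39 (Ebf1), 0.841 (Meis2), 1.83 (Nefl) and 0.468 (Tac1) times those of the Sst-positive cells. The low levels beside all other neurons were thus in large part shared by the counterparts.

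**Figure D3:**
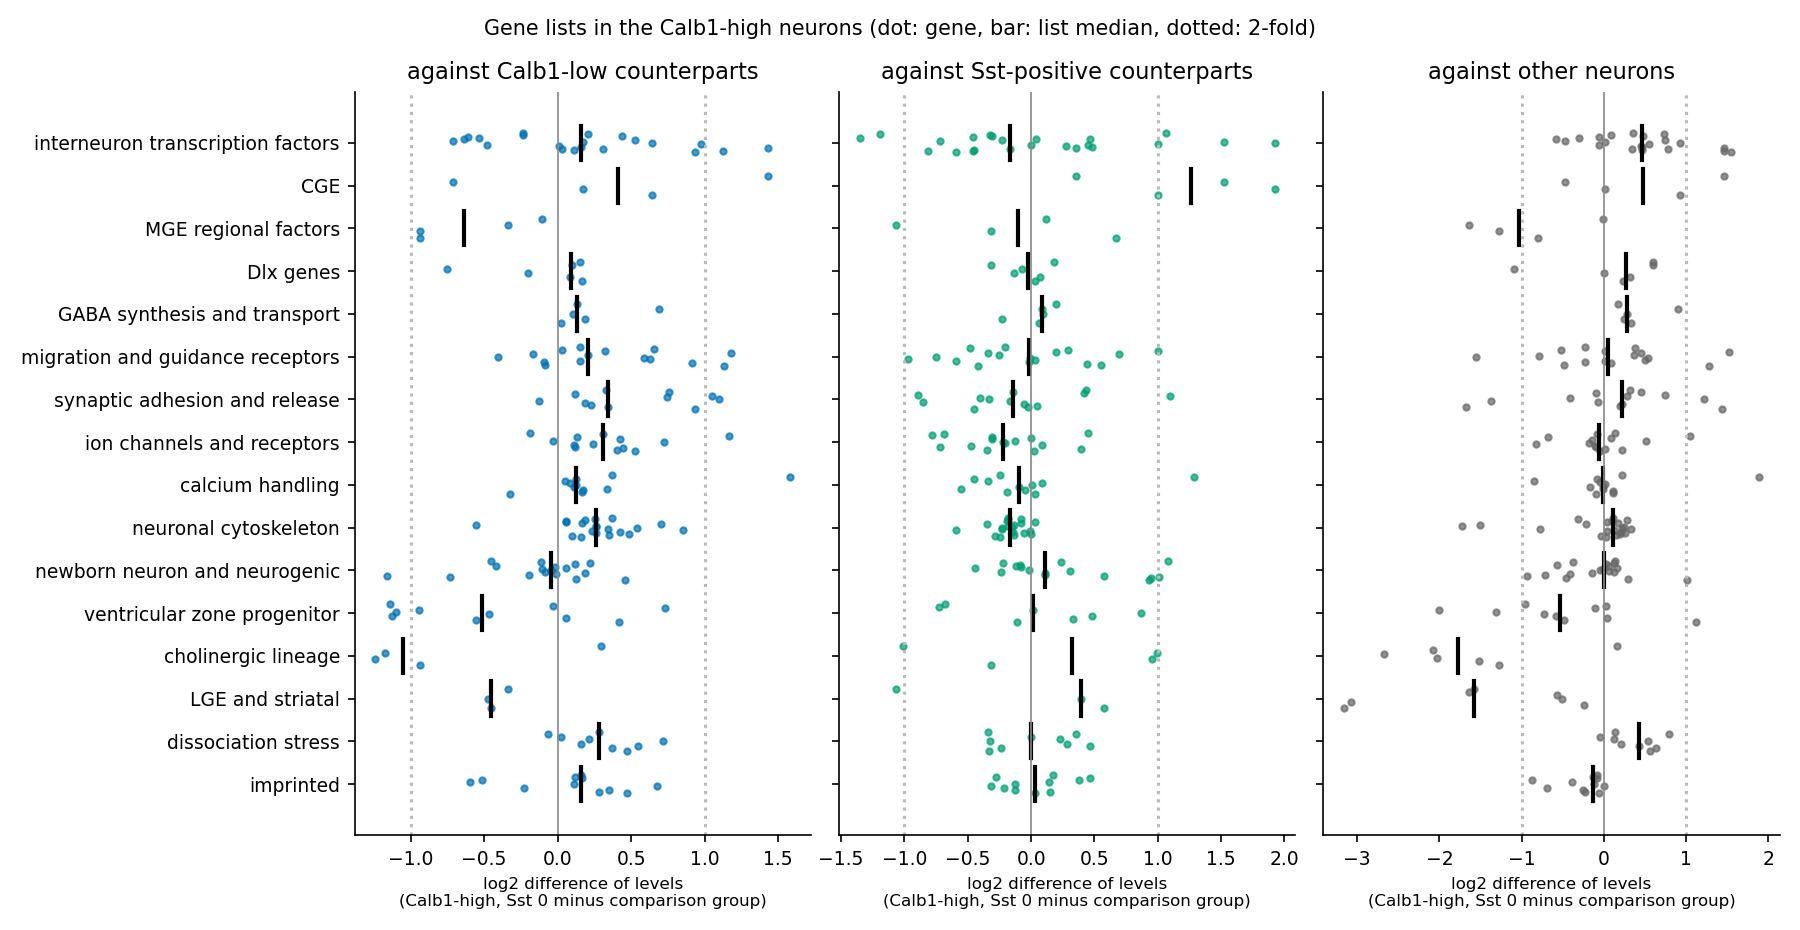
Log2 differences of levels, the Calb1-high neurons minus each comparison group, for the measured members of 16 gene lists with the rule genes left out. A dot is a gene, the black bar the list median and the dotted lines mark 2-fold, and the horizontal scale differs between panels. The cholinergic list lies lowest against the Calb1-low cells (median -1.05 over 4 genes, -0.03 over 13 genes without a level minimum) and the other neurons (-1.77), and the CGE list highest against the Sst-positive cells (1.26).

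The 202 cells were not uniform, and 1 axis among them ran between Lhx8 and the Nr2f genes. The splits that follow were chosen after the values had been seen and are descriptions. Lhx8 was at 0 in 67 cells, at 1 to 4 in 78 and at 5 or more in 57, with nearly equal median totals of 12096, 12276 and 12098. Over these 3 classes Nr2f1 went from 7.48 (SD 5.19) to 5.52 and 2.85 (SD 4.05), Nr2f2 from 2.29 to 0.810 and 0.717, and Epha5 from 11.2 to 9.37 and 4.83. Calb1 was at 12.6 where Lhx8 was 0 and 9.94 where it was 5 or more, and Gad1 over the 3 classes was at 1.51, 1.49 and 1.51. Between these classes, set by Lhx8 itself, the Calb1-high cells thus differed in Nr2f1 and Nr2f2 while their Gad1 was alike. Nkx2-1 differed as well, at 1.17, 1.61 and 2.17.

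Between the cells with Lhx8 at 5 or more and those at 0, 30 of 5873 genes were at least 2-fold higher (0.511%) and 31 lower (0.528%). Lhx8 itself is among the higher ones by the split. The noncoding transcript AI606473, whose gene lies beside Lhx8 (chromosome 3, 154330821 to 154334254, plus strand), was at 0.531 against 0.0122. The 2 annotated genes do not overlap, and per the sources used here it is not known whether counting used strand. How well reads of the 2 neighbours were separated was not tested. The others at the Lhx8 end included Pou3f2 at 1.35 against 0.182, the ETS factor gene Etv1 at 0.732 against 0.195, Mpped2 at 3.41 against 1.18, Kitl at 1.08 against 0.328 and the morphogen gene Shh at 0.402 against 0.109. At the other end stood Dcbld2, at 0.0574 against 0.486, Pcdh7 with a log2 difference of -1.55, the SoxD factor gene Sox5 at 0.459 against 1.25 and the imprinted gene Peg10 at 0.359 against 1.03. Prox1 was at 0.426, 0.447 and 0.531 over the 3 Lhx8 classes.

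**Figure D4:**
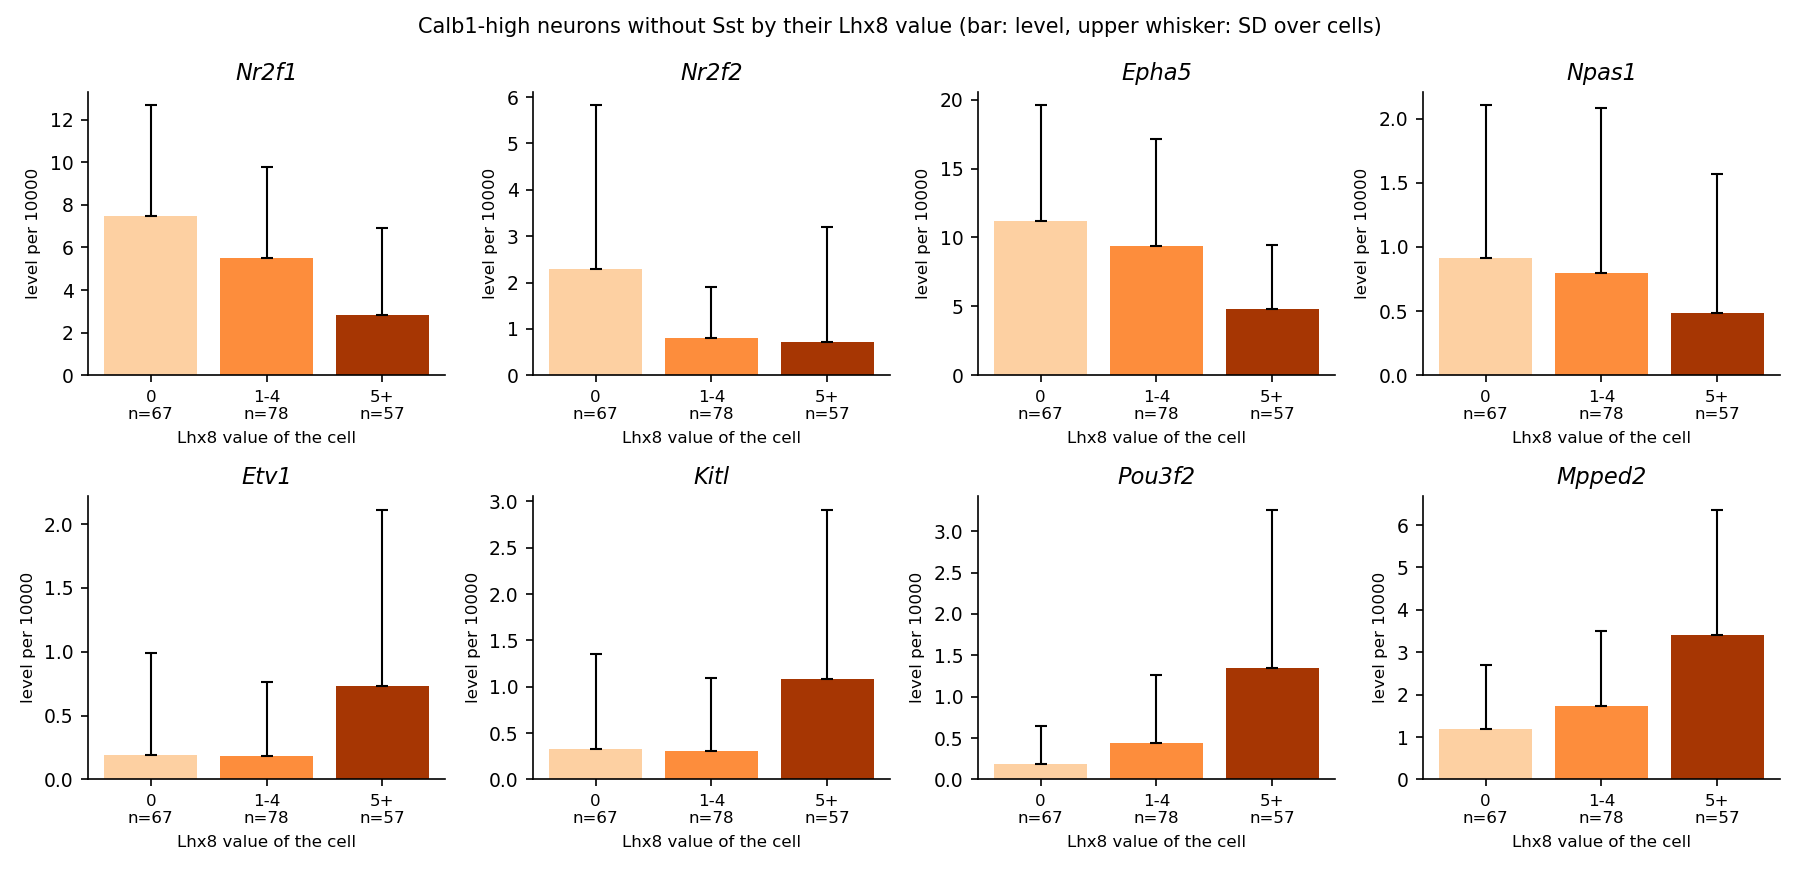
Levels per 10000 of 8 genes in the 202 Calb1-high neurons, split by the Lhx8 value of the cell into 67, 78 and 57 cells. Bars are levels and the upper whiskers the SD over cells. Nr2f1, Nr2f2, Epha5 and Npas1 are lower and Etv1, Kitl, Pou3f2 and Mpped2 higher where Lhx8 is 5 or more, with an SD as large as the level or larger in most bars.

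Split by Nr2f2, the 86 cells with a value had Nr2f1 at 8.43 against 3.15 in the 116 cells without, Epha5 in 97.7% against 87.9% of cells and Lhx8 at 1.11 against 3.58. Etv1 was at 0.0937 against 0.530, Kitl at 0.178 against 0.798, Sox6 at 2.97 against 4.59 and Npy at 1.62 against 3.49. Prox1 was at 0.647 against 0.325, with a value in 41.9% (31.3% to 53.0%) and 29.3% (21.2% to 38.5%) of cells. The median Calb1 value was 12 with and 11 without Nr2f2. Of 5816 genes, 6 were at least 2-fold higher with Nr2f2 (0.103%), Nr2f2 itself among them by the split, and 21 lower (0.361%). Nr2f2 had a value in 35.6% (27.5% to 44.2%) of the 135 cells with Lhx8 and in 56.7% (44.0% to 68.8%) of the 67 without. Spearman correlations over the 202 cells were 0.61 for Nr2f1 with Nr2f2, -0.46 for Lhx8 with Nr2f1 and -0.36 for Lhx8 with Nr2f2. The Calb1-low counterparts had 0.55, -0.56 and -0.38 and the Sst-positive counterparts 0.46, -0.55 and -0.19, so correlations of the same sign were also seen in cells outside the rule. Epha5 with Nr2f2 had 0.34 in the 202 cells, 0.31 in the Calb1-low and -0.06 in the Sst-positive cells. All cells share 1 library, and these correlations are descriptions.

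Maf and Npy marked smaller differences. The 87 cells with Maf had Mef2c at 0.629 against 0.214 in the 115 without, Zeb2, a zinc finger factor of the MGE lineage, at 1.55 against 0.635, and Npy at 3.61 against 1.98. The nociceptin precursor gene Pnoc was at 0.111 against 0.528 and Nkx2-1 at 1.09 against 2.03. The median Calb1 value was 13 with and 10 without Maf, and the median total 12322 and 11922. The part of Calb1 and of the totals in these differences was not tested. Of 5741 genes, 4 were at least 2-fold higher with Maf (0.0697%), Maf itself among them by the split, and 7 lower (0.122%). The 60 cells with Npy had Erbb4 at 1.93 against 1.33 and Nr2f1 at 4.16 against 5.96 in the 142 without. Between them 5 of 5832 genes were at least 2-fold higher (0.0857%), Npy itself among them by the split, and 7 lower (0.120%).

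With all rule genes left out, the 15 nearest neighbours of each cell were found in 30 principal components of the 2000 most variable genes. For the Calb1-high cells, 33.9% of neighbours were other Calb1-high cells, which made up 5.05% of the library. A further 25.1% were Calb1-low counterparts (11.2% of the library), 9.31% Sst-positive counterparts (1.47%) and 30.4% remaining neurons (42.4%), and 1.29% lay outside the neuron steps (39.8%). A cell had a median of 5 Calb1-high neighbours of 15 (quartiles 3 and 7, highest 11), and 10 cells had none. The Sst-positive cells had 27.8% Calb1-high and 28.8% Sst-positive neighbours, whereas the Calb1-low cells had 10.1% Calb1-high neighbours. Within the 202 cells, those with Lhx8 at 0 had 38.3% and those with Lhx8 at 5 or more 27.3% Calb1-high neighbours. Most neighbours of the Calb1-high cells therefore did not meet the rule themselves.

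**Figure D5:**
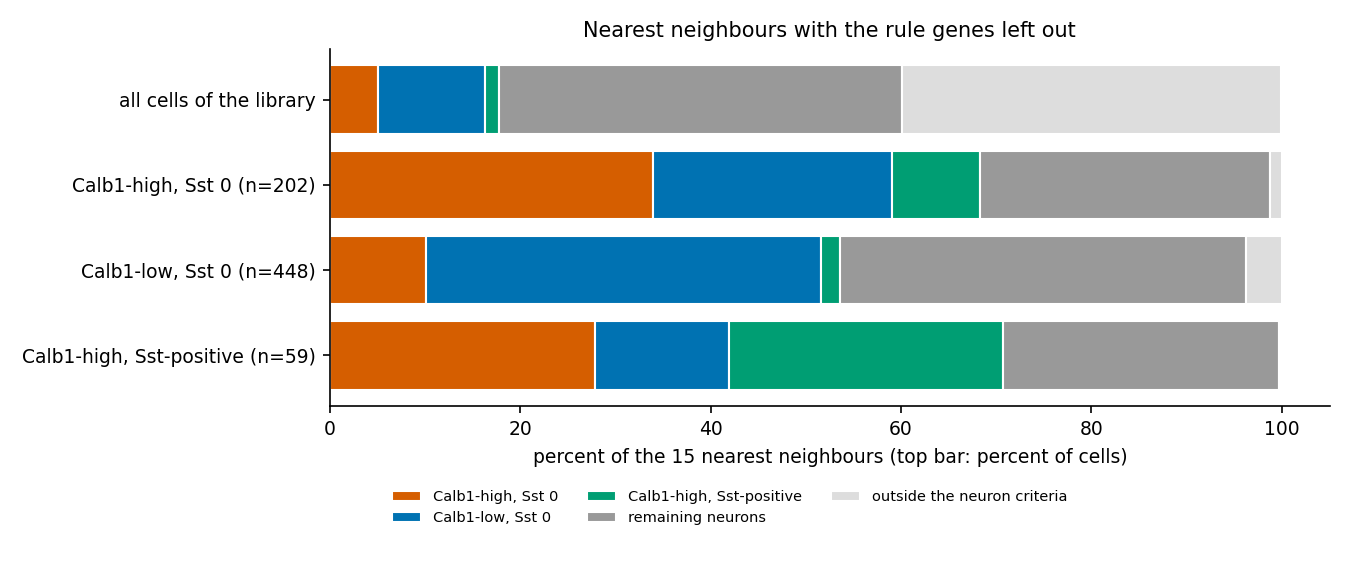
Groups of the 15 nearest neighbours of the Calb1-high, Calb1-low and Sst-positive cells, as percent of neighbours, below a bar for the make-up of all 4001 cells. Calb1-high cells make up 33.9% of neighbours of their own kind and 27.8% of those of Sst-positive cells, beside 5.05% of the library.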

How the data were processed

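The reads were processed by the authors with bcl2fastq and Cell Ranger 3.0.2 against GRCm38, per the submitters' processing notes. The deposited matrix of 18088 genes and 4001 cells, each with its own cell barcode, holds a score: whole numbers from 0 to 1245 that the authors made from molecule counts. The totals of all cells lie between 10475 and 14196, so the counts had been corrected for depth by a step that the sources used here do not describe, and the depth of single cells before it is unknown. In 215 cells, the value 1 made up under 10% of values over 233 low genes, a trace of that step. The matrix has no mitochondrial rows, and for 9 symbols on several rows the row with the largest sum carries the symbol. The deposited list of 6 sample barcodes gave the number of gated samples only.

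Levels, log2 differences (pseudocount 0.1, level minimum 0.25) and exact Clopper-Pearson intervals were computed in python 3.11.15 with numpy 2.4.6, pandas 2.3.3 and scipy 1.17.1, nearest neighbours with scikit-learn 1.9.0 and figures with matplotlib 3.10.9. The computation of levels and log2 differences was tested on simulated data with planted folds, for genes above a higher level minimum. The simulated cells varied by counting only, and the other steps were not tested this way. Intervals cover the counting of cells only. Shares were also computed after each cell had been thinned to 10000 values, which every cell used reached. Scrublet, run through scanpy 1.11.5, called 6 of 4001 cells (0.150%), which is too few for the caller to have worked, so doublets were kept, and none of the 202 cells was called. Named genes were the measured members of 24 gene lists, the 10 genes at each end of each ranking outside the lists, and the genes ranked by correlation with Calb1. Genes named in the splits by Lhx8, Nr2f2, Maf and Npy were chosen after their values were seen. The members and lists were chosen with earlier results of these data known. Promoter stretches came from RefSeq (GRCm38.p6) and gene positions from the GENCODE M21 annotation. Alternatives changed the pseudocount, the level minimum, the scaling, the thresholds of the rule and the cells kept. Some genes of the lists are not reported here by name, though they stay in the counts and medians.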

Additional observations from a re-analysis of the deposited data

How the results depend on the processing

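The share of 5.05% of cells was 6.55% with a Calb1 minimum of 3, 2.95% with 10 and 3.60% with an Lhx6 minimum of 3. Against the Calb1-low counterparts, the 14 higher and 17 lower genes became 34 and 27 at a pseudocount of 0.02, 2 and 5 at 0.5, and 4 and 10 at a level minimum of 1, where fewer genes were compared. With a Calb1 minimum of 10, 29 genes were lower. Against the Sst-positive counterparts, the 17 higher and 13 lower genes became 46 and 36 at a pseudocount of 0.02, 2 and 2 at 0.5, and 5 and 5 at a level minimum of 1. They became 31 and 21 with values not rescaled, 8 and 7 with a Calb1 minimum of 3, and 29 and 23 with a minimum of 10. They became 38 and 38 with Sst of 1 allowed and 29 and 23 with an Lhx6 minimum of 3, and 26 were higher without a level minimum. Against the other neurons, the 26 higher and 49 lower genes became 8 and 18 at a pseudocount of 0.5 and 12 and 20 at a level minimum of 1. The cause of these moves was not tested. Of 1201 alternatives for 116 single-gene differences, 0 changed sign and 63 moved by over 1.5-fold. These differences were those at the ends of the rankings or, for list genes, past 2-fold in the main setting. A change of pseudocount or level minimum cannot turn a sign. The lack of sign changes was thus largely set by this choice and is no measure of stability. Of 591 alternatives for 54 list medians, 32 changed sign, and 13 moved by over 1.5-fold. The neighbour share of 33.9% was 34.2% with 30 neighbours and 33.0% with 15 components. No paired analysis was possible because there was 1 pooled library. The group of 59 Sst-positive cells gives the widest intervals, and the counts for it moved most often.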

Other observations

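Of the neuropeptide genes with a row, Pnoc was at 0.346 in the Calb1-high cells, with a value in 17.8% of them, against 0.631 in the other neurons. Its level was 2.30 times that of the Calb1-low and 1.68 times that of the Sst-positive counterparts. In these counterparts 11.4% and 8.47% of cells had a value. The guidance receptor genes Robo1 and Robo2 were at 1.20 and 1.54 in the Calb1-high cells, against 0.738 and 0.993 in the Calb1-low and 1.17 and 3.13 in the Sst-positive counterparts. The neurofilament-type gene Ina was at 6.45 against 3.93 in the Calb1-low cells. Imprinted genes had list medians of 0.16, 0.03 and -0.13 against the Calb1-low, Sst-positive and other neurons, with no conclusion drawn from them.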
